A study of Macaca fascicularis and Macaca mulatta with 24 samples.

Results

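Gene expression in the ischemic cerebral cortex was compared between 6 h and 1 h after a stroke in cynomolgus macaques that had received the peptide TatNR2B9c. The comparison rests on 6 of the 24 arrays of the study, chosen by their titles as TatNR2B9c, right hemisphere, with 3 arrays at 6 h and 3 at 1 h. The labels count 3 animals per group and use the numbers 1 to 3 at both times, without saying whether a number marks the same animal at 6 h and 1 h. In all animals the right middle cerebral artery was occluded (MCAO), an experimental stroke that cuts the blood supply of the lateral cortex, and 2.6 mg/kg TatNR2B9c was given intravenously 5 min later, so that both times share the drug and its dose. The other 18 arrays came from placebo-treated animals and from the non-ischemic left cortex of both treatments. No sham-operated or unoperated animals, strain, age or sex were named in the labels, and the biopsies were flash-frozen cortex with no statement of how much of each lay in the core of the infarct. All values below are log2 ratios of cortex RNA (labelled with Cy5) over a universal reference RNA from rhesus macaque (labelled with Cy3), measured on a rhesus macaque oligonucleotide array, and every difference is 6 h minus 1 h.

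When a cerebral artery is blocked, neurons lose their energy supply, depolarise and release glutamate, which opens NMDA receptors and lets calcium into the cell. The NMDA receptor subunit GRIN2B (NR2B) is tied through its tail to the scaffold PSD-95 (DLG4), which also holds the nitric oxide synthase NOS1, and TatNR2B9c carries the last residues of that tail on a cell-penetrating Tat segment so that it competes for the scaffold. In the hours after a stroke the tissue is known to switch on immediate early genes first, then heat shock proteins, cytokines and hypoxia-responsive genes, while neurons under the blocked artery may lose their transcripts as they die.

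In the 6 h against 1 h comparison, 19 of 15755 genes tested passed (0.121%), of which 17 rose (0.108%) and 2 fell (0.0127%). The threshold was a p under 0.05 after Benjamini-Hochberg adjustment over all genes, in a limma fit of all 24 arrays with 1 mean per group. The largest rises were in PYY, RDBP, CPLX1 and CABP1, and the falls were in EXOSC8 and PLEKHK1. The 60-base probes that read these 6 genes and STIP1, the chaperone among the 19, are shown because the base composition of the probes moved with the result. Each is written 5′ to 3′ as the array files give it, with the first of its longest runs of G and C in capitals, and its position is on the rhesus build rheMac2.
PYY (chr16:54028955-54029014, minus strand, 73.3% G+C): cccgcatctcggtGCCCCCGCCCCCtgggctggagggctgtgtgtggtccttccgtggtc
RDBP (chr4:31608103-31608162, minus strand, 55% G+C): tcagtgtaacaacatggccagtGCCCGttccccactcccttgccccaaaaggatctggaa
CPLX1 (chr1:3189070-3189129, plus strand, 55% G+C): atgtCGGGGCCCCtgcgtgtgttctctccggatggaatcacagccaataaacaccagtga
CABP1 (chr11:121701518-121701577, plus strand, 70% G+C): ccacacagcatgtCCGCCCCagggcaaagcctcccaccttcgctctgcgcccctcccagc
STIP1 (chr14:10225342-10225401, minus strand, 50% G+C): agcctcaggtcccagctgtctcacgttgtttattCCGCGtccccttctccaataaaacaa
EXOSC8 (chr17:16213061-16213120, plus strand, 25% G+C): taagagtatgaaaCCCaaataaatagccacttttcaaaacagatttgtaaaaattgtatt
PLEKHK1 (chr9:75076565-75076624, plus strand, 35% G+C): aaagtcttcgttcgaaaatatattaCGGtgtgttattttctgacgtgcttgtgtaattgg
The probes of the 4 largest rises hold 55% to 73.3% G and C, and those of both falls hold 25% and 35%. Over all genes the median was 43.3%. No annotation of exons or untranslated regions was used here.

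The 6 arrays differed by batch as well as by time. The 6 h arrays 1 and 2 lay on slide 10 and were scanned on scan day 5 of the study, whereas the 6 h array 3 lay on slide 9 and was scanned on scan day 4 with all 3 of the 1 h arrays, which lay on slides 7, 8 and 9. Time can therefore be compared within a scan day only between 1 array at 6 h and 3 at 1 h. In Cy5, the percentage of probes that read well above background was 71.9% ± 10.3 at 6 h and 64.3% ± 5.87 at 1 h (SD, n = 3 each, exact permutation p = 0.3, two-sided). In the Cy3 channel, which holds the same reference RNA on every array, it was 87.5%, 91.5% and 78.7% at 6 h against 74.5%, 62.8% and 53.9% at 1 h, with no overlap (85.9% ± 6.55 and 63.7% ± 10.3, exact p = 0.1, the smallest that 3 against 3 arrays allow). The log2 ratios spread more widely on the slide 10 arrays, with an SD over genes of 1.39, 1.36 and 0.992 at 6 h and of 1.11, 1.04 and 1.03 at 1 h. Of the 47 neuron markers tested, 45 were well above background in Cy5 on all 6 arrays, against 10145 of the 15755 genes tested. Both counts follow a filter on that signal, and the identity of the tissue was not tested.

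Each of the 19 genes that passed had its 3 values at 6 h clear of its 3 values at 1 h, and all 19 shared the same adjusted p of 0.0499, with the next gene at 0.0543. Over all genes tested, 4397 (27.9%) had groups that did not overlap, 2697 higher (17.1%) and 1700 lower (10.8%) at 6 h. An unadjusted p under 0.05 was reached by 3054 genes (19.4%), of which 2018 were higher (12.8%) and 1036 lower (6.58%). The number that passed depended on single arrays. Without the 6 h array 3 it was 303, whereas without 6 h array 1 or 2 it was 2 or 0, and without 1 h array 1, 2 or 3 it was 0, 8 or 0. Within scan day 4, which holds 1 array at 6 h, all 19 genes kept their sign. That sign was fixed in advance, because the groups of each gene did not overlap. The values within scan day 4 also reuse arrays that called the genes, so they are given as a description only. With the scanner software's processed signals 2 genes passed, neither of them among the 19, and in a limma fit of the 6 arrays alone 0 did, with 3343 at an unadjusted p under 0.05.

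**Figure D1:**
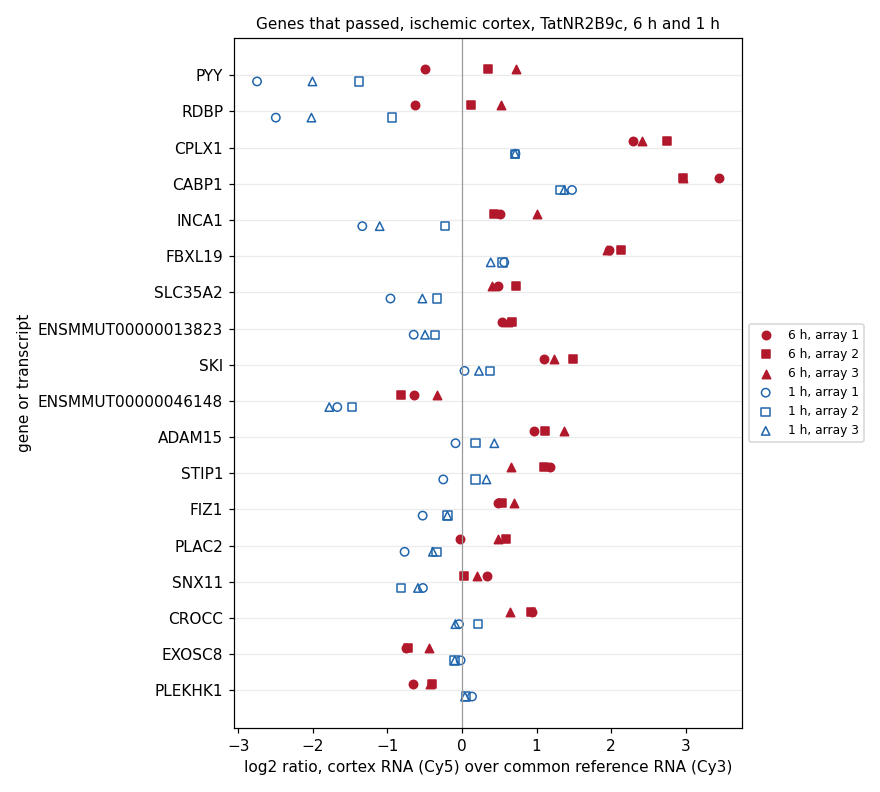
Of the 19 genes and transcripts that passed, 18 are plotted with the log2 ratio of cortex RNA over reference RNA on the horizontal axis, filled red symbols for the 3 arrays at 6 h above open blue symbols for the 3 arrays at 1 h. The groups do not overlap for any of them, and PYY and RDBP have the widest spread within a time, from -2.75 to -1.38 at 1 h for PYY.

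Among the rises, PYY encodes peptide YY, a peptide hormone of the neuropeptide Y family made mainly in the gut. It read -0.50, 0.34 and 0.72 on the 3 arrays at 6 h, against -2.75, -1.38 and -2.00 at 1 h, a difference of 2.23 (SE 0.35, adjusted p = 0.0499, limma), or 4.70-fold. All 3 values at 6 h lay above all 3 at 1 h, and the difference within scan day 4 was 2.77. RDBP encodes a subunit of negative elongation factor, which holds RNA polymerase II in a pause near the start of genes. Its values were -0.63, 0.12 and 0.52 at 6 h and -2.50, -0.94 and -2.02 at 1 h, a difference of 1.82 (SE 0.35, adjusted p = 0.0499, limma). The arrays fell in the same order for RDBP as for PYY, with array 1 lowest at each time. In the non-ischemic left cortex the time difference was 0.62 for PYY and 0.37 for RDBP, and the test between the hemispheres passed for neither.

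Both neuronal genes among the largest rises were well above the reference RNA at either time. CPLX1 encodes complexin 1, which binds the SNARE complex and clamps synaptic vesicles until calcium arrives. It read 2.30, 2.75 and 2.41 at 6 h against 0.72, 0.71 and 0.71 at 1 h, a difference of 1.77 (SE 0.34, adjusted p = 0.0499, limma), or 3.41-fold. The 1 h arrays were nearly level for it, and every array at 6 h was higher by more than 1.5 on the log2 scale. CABP1 encodes a neuronal calcium-binding protein related to calmodulin that modulates calcium channels. It read 3.45, 2.96 and 2.96 at 6 h against 1.47, 1.32 and 1.37 at 1 h, a difference of 1.73 (SE 0.33, adjusted p = 0.0499, limma). Within scan day 4 CPLX1 differed by 1.69 and CABP1 by 1.58. In Cy5 alone CPLX1 differed by 0.91 and CABP1 by 1.38.

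The other genes that rose with a difference over 1 were INCA1, an inhibitor of cyclin-dependent kinase that binds cyclin A1 (difference 1.54, SE 0.26), FBXL19, an F-box protein of ubiquitin ligases (1.52, SE 0.29), SLC35A2, the Golgi transporter of UDP-galactose (1.14, SE 0.22), and SKI, a corepressor of SMAD proteins in transforming growth factor beta signalling (1.06, SE 0.20). FBXL19 was the tightest of them, with 1.97, 2.13 and 1.94 at 6 h against 0.57, 0.54 and 0.38 at 1 h. INCA1 was the loosest at 1 h, where it read -1.34, -0.23 and -1.1, against 0.51, 0.43 and 1.01 at 6 h. In Cy5 alone INCA1 differed by 1.19, FBXL19 by 0.89, SLC35A2 by 1.60 and SKI by 0.56. In Cy3 alone, the reference RNA, the same genes differed by -0.13, -0.39, 0.63 and -0.24. Transcripts without a gene symbol in the files also rose, 1 annotated there as a type I keratin (1.11, SE 0.21) and 1 as a histone H3 (1.05, SE 0.18), and both are named here because they passed, outside the rule for named genes. Histone H3 genes form a family of near-identical copies, so this probe may read several of them.

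Smaller rises were found in ADAM15, a membrane metalloprotease (0.97), STIP1, the co-chaperone that links HSP70 to HSP90 (0.89), FIZ1, a zinc finger protein (0.88), PLAC2 (0.85), SNX11, a sorting nexin of endosomes (0.83), and CROCC, rootletin of the ciliary rootlet (0.81). STIP1 read 1.18, 1.1 and 0.65 at 6 h against -0.25, 0.18 and 0.33 at 1 h. In Cy5 alone PLAC2 differed by 0.014, and in Cy3 alone by -0.63, so its higher ratio came with a lower signal of the reference RNA. The others differed in Cy5 alone by 0.41 for ADAM15, 0.62 for STIP1, 0.95 for FIZ1, 0.40 for SNX11 and 0.87 for CROCC. CROCC was well above background on all 3 arrays at 6 h and on 2 of 3 at 1 h, and the other 14 genes and both transcripts that rose were so on all 6.

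EXOSC8, a subunit of the RNA exosome that degrades and trims RNA, fell to -0.76, -0.72 and -0.45 at 6 h, against -0.02, -0.10 and -0.10 at 1 h (difference -0.57, SE 0.11, adjusted p = 0.0499, limma). PLEKHK1, a pleckstrin homology domain protein, fell by 0.57 on the log2 scale (SE 0.11), with -0.66, -0.40 and -0.43 at 6 h against 0.13, 0.05 and 0.04 at 1 h. Its probe was well above background on 1 array of 3 at each time, so most of its values lie near the detection limit. EXOSC8 was well above background on 3 of 3 arrays at 6 h and 2 of 3 at 1 h, and in the Cy5 channel alone its difference was 0.30, the opposite sign. The next genes by p that were lower, none of which passed, were GORAB (-0.51), CCNC, encoding cyclin C (-0.79), AGBL2, FSD2 (-0.91), CP, encoding ceruloplasmin, MOCS2, of molybdenum cofactor synthesis, IFIT5, interferon-induced (-0.55) and TMX1, a thioredoxin of the endoplasmic reticulum (-0.86), with an adjusted p of 0.0677 for the first 5 and 0.0685 for the other 3 (limma). No difference is given for AGBL2, CP and MOCS2, because AGBL2 was not well above background on any array at 6 h and CP and MOCS2 on none at 1 h. FSD2 was well above background on 1 of 3 arrays at each time, IFIT5 on 1 of 3 at 6 h and 2 of 3 at 1 h, and GORAB, CCNC and TMX1 on 2 of 3 at 6 h and 3 of 3 at 1 h.

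The base composition of the probes moved with the time difference. With genes split into 5 equal bins by the G+C share of their probe, the median difference was -0.09, -0.06, 0.05, 0.10 and 0.20 from the lowest bin to the highest. Genes higher at 6 h at an unadjusted p under 0.05 made up 5.46% of the lowest bin and 24.3% of the highest, and genes lower made up 10.3% and 3.97%. Of the 19 genes that passed, 12 lay in the highest bin, and the probes of the 17 that rose had a median of 55% G+C, with a range of 43.3% to 75%. Across genes within an array, which are not independent, the log2 ratio correlated with probe G+C at -0.03, -0.05 and 0.03 at 6 h against -0.21, -0.11 and -0.11 at 1 h. After each array was adjusted for probe G+C no gene passed in limma, with 2932 at an unadjusted p under 0.05. The 18 genes and transcripts described all kept their sign there, with a difference of 1.99 for PYY, 1.68 for CPLX1 and -0.39 for EXOSC8, against 2.23, 1.77 and -0.57 without the adjustment. The median difference of the neuron markers described below was 0.93 with the adjustment and 0.96 without it.

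**Figure D2:**
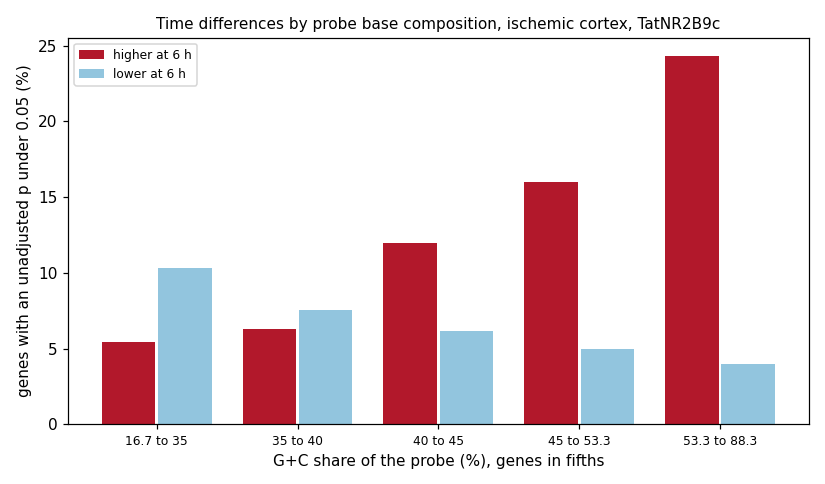
Bars give the percentage of genes with an unadjusted p under 0.05 in each of 5 bins of probe G+C share, red for genes higher at 6 h and light blue for genes lower at 6 h. The red bars go from 5.46% in the lowest bin to 24.3% in the highest while the blue bars go from 10.3% to 3.97%.

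The chosen lists of genes describe the tissue more broadly, and in 26 of the 29 lists no member passed. STIP1 was the member that passed among heat shock proteins and chaperones, and CPLX1 passed as a member of both the neuron markers and the vesicle release genes. The lists are therefore given by their medians, beside a median of 0.04 over all genes tested, and by the number of members whose groups did not overlap, which over all genes was 17.1% higher and 10.8% lower at 6 h. With median centring in place of loess the median of all genes was -0.46, and list medians under that setting stand beside it. A bulk measurement cannot tell a change in the number of cells of a type from a change in RNA per cell.

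Neuron markers and vesicle release genes had the highest medians over the 6 arrays. Within scan day 4 the oligodendrocyte markers (0.81), the NRF2 targets (0.54) and the microglia and macrophage markers (0.44) were above both. The median of 47 neuron markers was 3.00, 3.25 and 2.17 on the arrays at 6 h and 1.76, 1.80 and 1.89 at 1 h, and the median of their differences was 0.96, with 44 above 0. For 27 of the 47 the groups did not overlap, all higher at 6 h. The direction was not kept under every scaling, as the median difference was -0.02 in the Cy5 channel alone and -0.04 with centring in place of loess, where the median of all genes was -0.46, and 0.16 with arrays scaled to equal spread. Within scan day 4 it was 0.36. After loess and then quantile scaling of mean intensity between arrays, the same markers had a median difference of 0.06 in Cy5 and -0.81 in Cy3. Their higher ratio at 6 h thus came with a lower signal of the reference RNA.

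Members among the 4 smallest p of each list are named in what follows besides the fixed genes, and were chosen after their values were seen. NRGN, neurogranin of the postsynaptic spine, read 2.11, 2.62 and 2.17 at 6 h against 1.21, 1.21 and 1.27 at 1 h (difference 1.07, adjusted p = 0.0677, limma). SYP, synaptophysin of the vesicle membrane, is a member of the vesicle release list, whose 41 genes had a median difference of 0.84, 39 of them above 0 and 21 with higher groups apart. SYP read 1.82, 1.99 and 1.42 at 6 h and 0.61, 0.56 and 0.46 at 1 h (1.20, adjusted p = 0.0705, limma), and the 3 arrays of each time were clear of one another. SYT5, a synaptotagmin, differed by 1.27. The list as a whole had a median of 0.25 within scan day 4, -0.01 in Cy5 alone and -0.01 with median centring.

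**Figure D3:**
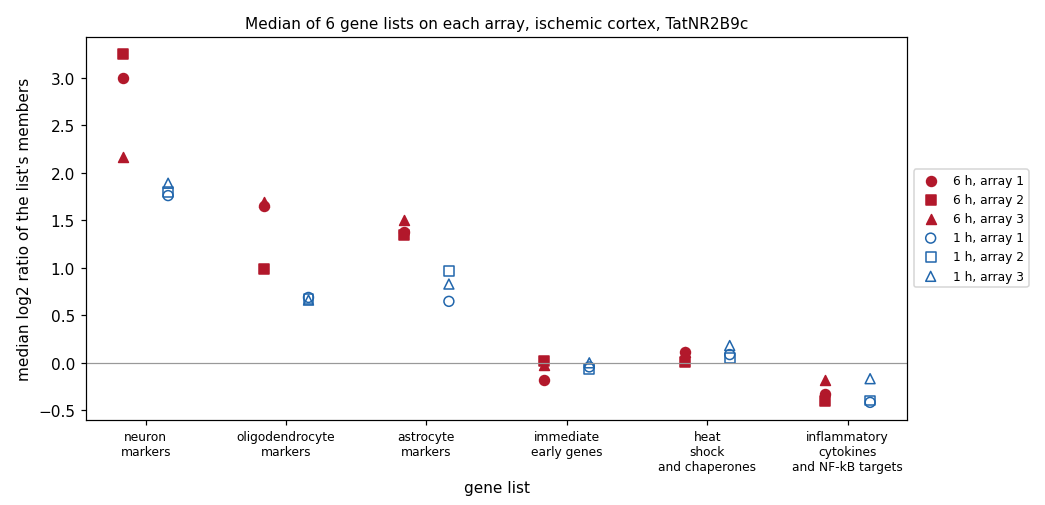
The median log2 ratio of the members of 6 lists is plotted for each array, filled red symbols for 6 h left of open blue symbols for 1 h. Neuron markers have 3.00, 3.25 and 2.17 at 6 h above 1.76 to 1.89 at 1 h, oligodendrocyte and astrocyte markers are also higher on every array at 6 h, and immediate early, heat shock and inflammatory lists lie near the same level at both times.

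The targets of the peptide belong to the list of the NMDA receptor and PSD-95 complex, in which no member of 35 passed. Its median difference was 0.57, with 32 members above 0, 16 with higher groups apart and 1 with lower. DLG4, PSD-95 itself, read 1.08, 2.00 and 0.90 at 6 h against 0.00, 0.35 and 0.43 at 1 h (1.07, SE 0.24, adjusted p = 0.0685, limma). GRIN2B, whose tail the peptide copies, read 2.05, 3.19 and 0.73 at 6 h against 0.11, 0.74 and 0.48 at 1 h, with overlapping groups (1.55, SE 0.52, adjusted p = 0.129, limma). It differed by 0.30 within scan day 4. GRIN1, the obligate subunit, differed by 0.89 (2.53, 2.31 and 2.10 at 6 h, 1.38, 1.28 and 1.61 at 1 h), and GRIN2A, the other main cortical subunit, by 1.36 (4.34, 4.26 and 3.21 at 6 h, 2.73, 2.33 and 2.68 at 1 h), both with groups apart. NOS1, neuronal nitric oxide synthase, differed by 0.57 with overlapping groups. The mean log2 Cy5 signal of GRIN2A was lower at 6 h, at 11.71 against 12.37 at 1 h. Its Cy3 signal was 7.77 against 9.79, so its higher ratio came with a lower signal of the reference RNA. GRIN1, GRIN2B, DLG4 and NOS1 were higher in Cy5 at 6 h, GRIN1 at 13.55 against 12.91. Their Cy3 signals were also lower at 6 h than at 1 h. These were 11.24 against 11.49 for GRIN1 and 6.13 against 6.97 for GRIN2B. For DLG4 they were 7.11 against 7.55, and for NOS1 7.66 against 7.95. The list's median was 0.30 within scan day 4 and 0.08 in Cy5 alone. With median centring it was -0.08, where the median of all genes was -0.46.

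Other receptor and channel lists also had medians above that of all genes. The 23 genes of AMPA, kainate and metabotropic glutamate receptors had a median of 0.51, the 32 genes of GABA receptors and interneurons 0.54 and the 75 voltage-gated ion channels 0.61, with 71 channels above 0 and none with lower groups apart. No member of these lists passed. GRIA3, an AMPA receptor subunit, read 4.49, 5.12 and 3.59 at 6 h against 2.82, 2.44 and 2.43 at 1 h. GAD2, which makes GABA, differed by 1.48, while CALB1, calbindin of interneurons and some pyramidal cells, was lower with groups apart at -1.36, -0.86 and -1.91 at 6 h against -0.15, -0.66 and -0.40 at 1 h (-0.97, adjusted p = 0.174, limma). In Cy5 alone the medians of the 3 lists were -0.12, -0.30 and -0.01. Within scan day 4 they were 0.14, 0.00 and 0.14.

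Ion pumps, exchangers and channels linked to ischemic cell death had a median of 0.37 over 29 genes (-0.03 in Cy5 alone and -0.45 with median centring), among them SLC8A2, a sodium-calcium exchanger of neurons (1.27), and the hemichannel PANX2 (1.31). Neurotrophic factors and their receptors had a median of 0.24 over 40 genes, 0.12 in Cy5 alone and -0.20 with median centring. PTN, the secreted growth factor pleiotrophin, read 2.66, 2.29 and 2.33 at 6 h against 1.03, 0.97 and 0.92 at 1 h (1.45, adjusted p = 0.0705, limma). Its probe holds 25% G+C, within the lowest of the 5 bins. BDNF, the neurotrophin induced by activity, differed by 0.41 with overlapping groups.

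Glial markers lay on the same side. The 26 oligodendrocyte markers had a median difference of 0.71, with 23 above 0 and 11 with higher groups apart, and a median of 0.81 within scan day 4, 0.08 in Cy5 alone and -0.08 with median centring. HAPLN2, a link protein of nodes of Ranvier, read 1.09, 1.05 and 2.48 at 6 h against -0.88, -0.32 and -0.73 at 1 h (2.19, SE 0.52, adjusted p = 0.0705, limma). NKX6-2, a transcription factor of myelinating cells, differed by 1.05, and MBP, myelin basic protein, by 0.86 with overlapping groups. The 29 astrocyte markers had a median of 0.40, with 0.35 within scan day 4, 0.01 in Cy5 alone and -0.51 with median centring. SLC1A2, the main glutamate transporter of astrocytes, read 3.79, 4.43 and 4.08 at 6 h against 2.44, 2.65 and 2.04 at 1 h (1.72, SE 0.47, adjusted p = 0.0896, limma). GFAP, the filament of reactive astrocytes, read 2.12, 1.51 and 1.83 at 6 h against -0.05, 1.04 and 0.84 at 1 h (1.21, adjusted p = 0.102, limma), whereas AQP4, the water channel of their endfeet, differed by -0.03. In Cy5 the mean log2 signal of SLC1A2 was 10.58 at 6 h and 10.60 at 1 h, whereas that of GFAP was 11.85 and 10.43. In Cy3 the signal of SLC1A2 was 6.48 at 6 h and 8.22 at 1 h.

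**Figure D4:**
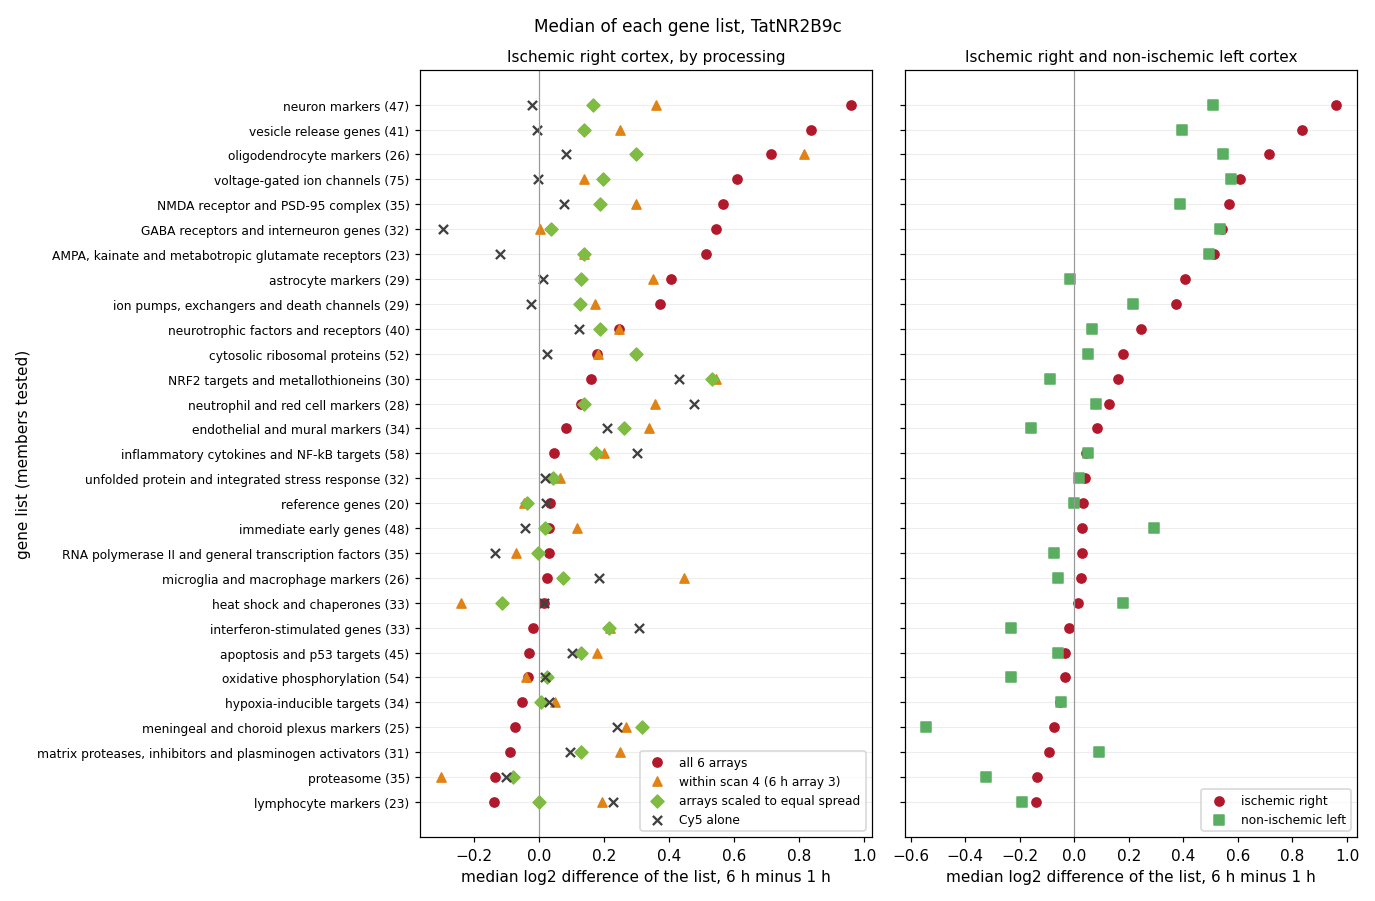
Each row is a gene list with the number of members tested, and the horizontal axes give the median log2 difference of its members, 6 h minus 1 h. The left panel sets the value over all 6 arrays (red circles, 0.96 for neuron markers) beside the value within scan day 4 (orange triangles, 0.36), with equal spread (green diamonds, 0.16) and in Cy5 alone (crosses, -0.02), and the right panel sets the ischemic right cortex (red circles) beside the non-ischemic left cortex (green squares, 0.51 for neuron markers).

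Immediate early genes, the first transcripts induced by activity and injury, had a median of 0.03 over 48 members, 25 of them above 0, and none passed. It was 0.12 within scan day 4, -0.04 in Cy5 alone and -0.85 with median centring. FOS, the classic member, read -0.20, -0.37 and 0.79 at 6 h against 1.82, 0.26 and 1.85 at 1 h, with overlapping groups and a difference of -1.24 (SE 1.27, adjusted p = 0.633, limma). Its values differed by more among the 1 h arrays than the time difference itself. ARC, which regulates AMPA receptor traffic at synapses, read 2.82, 1.95 and 2.48 at 6 h against 1.47, 1.11 and 1.36 at 1 h (1.1, adjusted p = 0.148, limma), with groups apart. EGR1, a zinc finger factor, differed by 0.61 with groups apart, and NR4A1, a nuclear receptor induced by calcium, by -0.24 and ATF3, a stress-induced factor, by -0.23 with overlap. JUND, of the AP-1 family, had the smallest p of the list (difference 0.83).

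Heat shock proteins and chaperones had a median of 0.01 over 33 genes, -0.24 within scan day 4 and -1.02 with median centring, and STIP1 was the member that passed. HSPA1A, the inducible HSP70, read -0.08, -0.18 and 0.11 at 6 h against -0.65, -0.04 and 0.47 at 1 h (0.03, SE 0.74). Its levels overlapped entirely and stayed near the reference RNA. DNAJB1, its co-chaperone, differed by -0.11 and HSPB1, a small heat shock protein, by 0.31. HSF1, the factor that drives these genes, was higher on every array at 6 h (0.41) and DNAJB4, another co-chaperone, was lower on every array (-0.46, adjusted p = 0.231, limma).

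Hypoxia-inducible genes had a median of -0.05 over 34 members, the unfolded protein response 0.04 over 32, apoptosis and p53 targets -0.03 over 45, and NRF2 targets and metallothioneins 0.16 over 30, and no member of them passed. The NRF2 list was at 0.54 within scan day 4, 0.43 in Cy5 alone, 0.53 with equal spread and -0.83 with median centring. Within scan day 4 the other medians were 0.05 for hypoxia-inducible genes, 0.06 for the unfolded protein response and 0.18 for apoptosis, and with median centring all 3 were below -0.50. ADM, the vasodilator adrenomedullin, read -2.61, -1.59 and -1.46 at 6 h against -1.84, -1.78 and -1.03 at 1 h (-0.33). HMOX1, heme oxygenase of the NRF2 response, read -2.08, -2.40 and -0.96 at 6 h against -2.07, -2.31 and -2.12 at 1 h (0.35), and 1 array, 6 h array 3, stood above the rest. SOD2, the mitochondrial superoxide dismutase, was higher on all 3 arrays at 6 h (0.80, adjusted p = 0.0884, limma). CDKN1A, the p53 target p21, differed by 0.60, DDIT3 (CHOP), the pro-apoptotic factor of the unfolded protein response, by 0.55 and GADD45B, a damage-induced gene, by -0.08, the second of these with groups apart. SLC2A1, the glucose transporter of the blood-brain barrier and a hypoxia target, read 1.08, 1.14 and 1.14 at 6 h against 0.44, 0.58 and 0.56 at 1 h (0.60, adjusted p = 0.121, limma). Matrix proteases and plasminogen activators had a median of -0.09 over 31 genes, 0.25 within scan day 4 and 0.09 in Cy5 alone.

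Inflammatory cytokines and NF-kB targets had a median of 0.04 over 58 genes, with 8 higher and 7 lower groups apart and no member that passed. The median was 0.20 within scan day 4, 0.30 in Cy5 alone, 0.31 with processed signals and -0.29 with median centring. IL6, a cytokine induced within hours of injury, read 0.91, 1.22 and 0.62 at 6 h against -0.09, 0.66 and 0.09 at 1 h (0.70, SE 0.98), and was well above background on 1 of 3 arrays at 1 h. IL1B, interleukin-1 beta, read 1.42, -0.09 and 1.03 at 6 h against -0.07, 0.04 and 0.13 at 1 h (0.75). In both genes 1 array at 6 h lay below the highest at 1 h, so the groups overlapped. PTGS2, cyclooxygenase 2, ranged as widely within a time, with 2.24, 0.79 and 2.95 at 6 h against 2.65, 0.72 and 2.41 at 1 h (0.07). RELB, an NF-kB subunit, had the smallest p of the list and read 0.11, -0.32 and 0.19 at 6 h against -1.06, -0.87 and -1.16 at 1 h (1.02, adjusted p = 0.0705, limma). SOCS3, the feedback inhibitor of cytokine signalling, differed by 0.06. Interferon-stimulated genes had a median of -0.02 over 33 members, 0.22 within scan day 4, 0.31 in Cy5 alone and -0.67 with median centring. Of the 33 members, 3 had higher groups apart and 6 had lower. IRF9, a subunit of the interferon-activated transcription complex, was higher with groups apart (0.55). IFIT5 (-0.55) and IFIH1 had smaller p than IRF9 and were lower with groups apart, and neither passed. No difference is given for IFIH1, which was well above background on 1 of 3 arrays at 6 h and on none at 1 h.

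Markers of microglia, blood cells, vessels and meninges had list medians from -0.14 to 0.13 over the 6 arrays, and no member passed. Within scan day 4 all were higher, at 0.44 for microglia, 0.355 for neutrophils and red cells, 0.34 for endothelial and mural cells and 0.27 for meninges and choroid plexus. In Cy5 alone these 4 medians were 0.185, 0.48, 0.21 and 0.24. With median centring all 4 were below 0, where the median of all genes was -0.46. Microglia and macrophage markers had a median of 0.02 over 26 genes, with 6 h array 3 highest, as its list median was -0.18 against -0.72 and -0.68 on the other 6 h arrays and -0.49, -0.38 and -0.22 at 1 h. AIF1, their calcium-binding protein, differed by 0.17. Neutrophil and red cell markers had a median of 0.13 over 28 genes, of which 9 were well above background on all 6 arrays. S100A8, an abundant neutrophil protein, read -1.30, -1.26 and 1.51 at 6 h against -1.11, -0.84 and -0.43 at 1 h (0.44, SE 0.83), and HBB, the beta chain of hemoglobin, read 0.33, 2.19 and 1.90 at 6 h against 0.90, 1.73 and 1.25 at 1 h (0.18). Both spread more at 6 h than at 1 h, and S100A8 was high on 6 h array 3. Lymphocyte markers had a median of -0.14 over 23 genes, 0.19 within scan day 4 and 0.23 in Cy5 alone. Endothelial and mural markers had a median of 0.08 over 34 genes, with CLDN5, the tight junction claudin, at 0.41, and meningeal and choroid plexus markers one of -0.07 over 25.

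**Figure D5:**
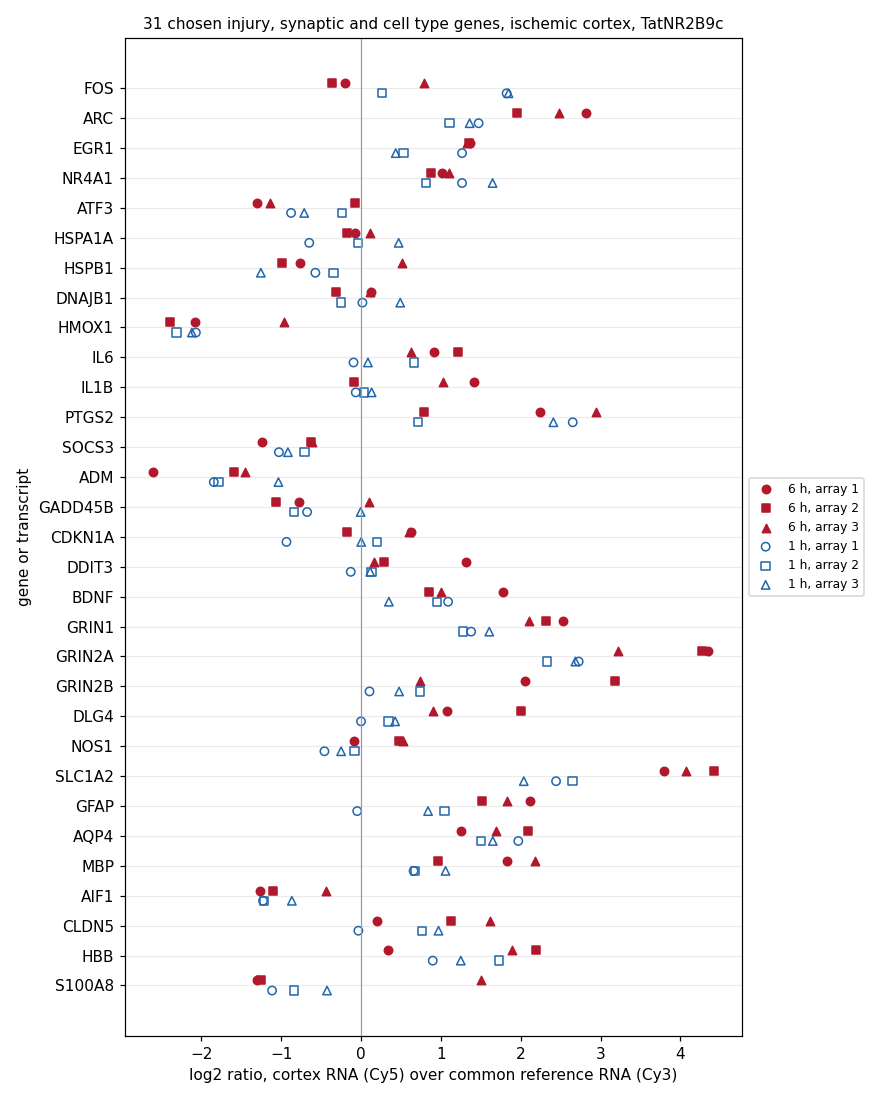
Of the 32 chosen genes that could be tested, 31 are plotted with the log2 ratio on the horizontal axis, filled red symbols for the 3 arrays at 6 h above open blue symbols for the 3 arrays at 1 h. The groups overlap for FOS, HSPA1A, IL6, PTGS2 and HBB, and do not for ARC, EGR1, GRIN1, GRIN2A, DLG4, SLC1A2 and GFAP, none of which passed.

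Lists of housekeeping machinery were read beside all genes in the same way. Reference genes had a median of 0.03 over 20 members and RNA polymerase II with the general transcription factors 0.03 over 35. Oxidative phosphorylation had a median of -0.04 over 54 genes, with 9 higher and 7 lower groups apart, where 17.1% and 10.8% of all genes were so, and the proteasome -0.14 over 35 genes, with 2 higher and 9 lower. PSMC3, a proteasomal ATPase, was higher at 0.38, 0.50 and 0.64 at 6 h against -0.33, 0.02 and -0.14 at 1 h, while PSMC6, of the same ATPase ring, was lower with groups apart (-0.54). Their probes hold 65% and 35% G+C. Cytosolic ribosomal proteins had a median of 0.18 over 52 genes, 13 of them with higher groups apart and none with lower, and of 0.03 in Cy5 alone. With median centring all these medians were below -0.80, as the median of all genes there was -0.46.

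The same time comparison in the non-ischemic left cortex of TatNR2B9c-treated animals gave 0 genes that passed in limma, with 2530 at an unadjusted p under 0.05 (16.1%). The difference between the hemispheres in their time difference was tested directly. In limma 0 of 15754 genes passed, with 369 at an unadjusted p under 0.05 (2.34%). None of the 19 genes was therefore shown to be particular to the ischemic side. That fit treated same-numbered right and left arrays as independent, although their deviations correlated at 0.248 to 0.521, except -0.208 for 6 h number 1. With the right minus left difference of each number, 0 genes passed and 688 had an unadjusted p under 0.05 (limma). Neuron markers had a median of 0.51 on the left and 0.96 on the right, oligodendrocyte markers 0.54 and 0.71, and voltage-gated channels 0.58 and 0.61. Same-numbered left and right arrays of a time lay on the same slide and scan day in every case. The time differences of the hemispheres correlated at 0.735 across 15755 genes. This is given as a description, because the arrays share slides, scan days and, where a number marks the same animal in both hemispheres, animals.

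The immediate early and heat shock lists had lower medians in the ischemic cortex than in the left cortex, and no member passed the test between hemispheres. The median difference of immediate early genes was 0.03 in the ischemic cortex against 0.29 in the left cortex, and of heat shock genes 0.01 against 0.18. The other stress lists did not share this, with 0.16 against -0.09 for NRF2 targets, 0.04 against 0.02 for the unfolded protein response, -0.03 against -0.06 for apoptosis and -0.05 in both for hypoxia-inducible genes. On the left FOS read 1.37, -2.98 and 2.94 at 6 h against -0.80, -0.96 and -0.45 at 1 h, and HSPA1A read 3.32, -0.45 and 1.56 at 6 h against -0.07, -0.29 and -0.40 at 1 h. For both genes left arrays 1 and 3 were high at 6 h and left array 2 was not. The right minus left difference in the time effect was -2.42 for FOS (SE 1.80) and -1.71 for HSPA1A (SE 1.04), and both had an adjusted p of 0.9999 in limma.

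In the ischemic cortex of placebo-treated animals 6424 genes (40.8%) passed between 6 h and 1 h and 7716 (49%) had an unadjusted p under 0.05, on arrays of other slides, scan days and image software whose times never shared a scan day, so time and batch cannot be told apart there. The time difference differed between treatments for 525 genes (3.33%), 394 of them higher under TatNR2B9c (2.50%) and 131 lower (0.831%), with 3406 (21.6%) at an unadjusted p under 0.05, and these counts share the same limit. Among the 19 genes, CPLX1 differed by 1.77 under TatNR2B9c and 1.92 under placebo, and EXOSC8 by -0.57 and -0.70. The largest rises did not match, with 2.23 and -0.26 for PYY and 1.82 and -0.20 for RDBP. PLAC2 differed by 0.85 and 0.03, and the histone H3 transcript by 1.05 and -0.29.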

How the data were processed

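RNA of 24 cortex samples was measured on 2-colour Agilent arrays, 1 for each sample, of a rhesus design with rheMac2 coordinates, per the file headers, with sample RNA in Cy5 and reference RNA in Cy3 and no dye swap, so dye bias cannot be removed. The images of the 6 arrays described were read with Agilent Feature Extraction 10.7.3.1, per the submitters' processing notes and the file headers. The deposited intensity values are each spot's mean brightness and median local background on a linear scale, not normalised, per the file headers, and its processed intensities had background subtracted and dyes normalised by that software. The log10 ratios deposited for each spot divide processed Cy5 by processed Cy3, as the file headers state. Ratios in the authors' series matrix equal these log10 values to within 0.005, which settles its direction and scale, and its column median is 0 on each of the 6 arrays. The deposited signal flags are 0 or 1 per spot, and the number of arrays limits the precision.

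Background was corrected with normexp (offset 50) and ratios were normalised by loess within arrays in limma 3.58.1 (R 4.3.3, with version 1.17.8 of data.table). Control spots and spots marked not uniform were left out, and spots of one of 20217 probes were averaged. Probes were kept when all 3 arrays of any of the 8 groups read well above background in Cy5 (17226 probes), and a gene was read by its brightest probe (15755 genes tested, 12952 symbols overall). Of the 20217 probes, the files' newest annotation named 6609, the oldest alone named 9733, and 3875 had no symbol, while 1223 of the 5937 with 2 names had differing ones. All 24 arrays were fitted with lmFit and eBayes, two-sided, and p-values were adjusted over all genes of a comparison. This shares 1 estimate of spread across groups. The p-values therefore rest on the spread between arrays within all 8 groups, not only within the 2 compared. That spread includes differences of slide and scan day within a group. Mean log2 Cy5 and Cy3 signals of a gene were taken after loess and then quantile scaling of mean intensity between arrays. Cy5 alone and Cy3 alone were instead background-corrected single channels, quantile-normalised across arrays without loess. Plots were drawn in Python 3.11.15 with matplotlib 3.10.9 and pandas 2.3.3.

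Named genes were the largest passing rises and falls with a symbol and no overlap of groups, filled to 10 by smallest p, passing list members, and a fixed set of genes, of which CCL2, VEGFA and TIMP1 were not found on the array by symbol and IL8 was below the filter. The comparison, its members, the 29 lists and the fixed genes were chosen with earlier results of these data known. The animal numbers were not treated as pairing the times, because same-numbered 6 h and 1 h arrays deviated together at correlations of 0.24, 0.005 and 0.276, of which 1 was near 0, and the labels do not say what a number marks. The fit was tested on simulated data. Values of some genes are not reported here.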

Additional observations from a re-analysis of the deposited data

Results flagged for a closer look

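The time difference in the ischemic cortex differed between TatNR2B9c and placebo, by an interaction test in limma, for 525 genes. Among the named genes and transcripts this held for PYY, whose 6 h minus 1 h difference was 2.49 higher under TatNR2B9c (log2, adjusted p = 0.0126, limma), for RDBP (2.02 higher, adjusted p = 0.0331, limma), for PLAC2 (0.82 higher, adjusted p = 0.0486, limma), for the histone H3 transcript ENSMMUT00000046148 (1.34 higher, adjusted p = 0.0098, limma) and for HBB (3.92 higher, adjusted p = 0.0381, limma). PYY differed by 2.23 under TatNR2B9c and by -0.26 under placebo. HBB differed by 0.18 under TatNR2B9c and by -3.74 under placebo, where it read -3.93, -5.30 and -4.02 at 6 h against -0.71, 0.25 and -1.57 at 1 h. The arrays of the placebo times were scanned on separate days with separate software versions, so treatment and batch cannot be told apart in these values.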

How the results depend on the processing

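The 19 genes were at the edge of the threshold, and the count changed under most alternatives. It was 2 with the processed signals and 3 with the series matrix, none of them among the 19, and 0 with Cy5 alone, 4 with no background subtraction, 0 with median centring, 1 with equal spread, 11 with no filter, 1 with probes well above background on all 6 arrays, 0 with every probe tested, 0 in a fit of the 12 TatNR2B9c arrays, 0 in a fit of the 6 arrays alone, and 0 with slide or with scan day as a random block. It was 94 without 3 placebo arrays of weak reference signal and 2047 with array weights, and both kept all 19 genes. A replicate block over the animal numbers, which were not treated as pairing the samples, gave 1 gene, and 2 of 3 numbers had their highest correlation with themselves. Leaving out 1 array of the comparison gave 0 to 303 genes. Added after seeing the data, an adjusted p under 0.1 gave 434 genes and adjustment for probe G+C gave 0. Cy3 alone, which reads the common reference RNA and not the cortex, was also added then and gave 0 (525 at an unadjusted p under 0.05). The comparison within scan day 4 was added then as well. Leaving out saturated spots kept all 19. The left cortex gave 1 gene with median centring, and 0 genes passed the test between hemispheres under every alternative run. The 525 genes that differed between treatments became 12 with processed signals, 13 with the series matrix, 228 with Cy5 alone, 25 with median centring, 4 with equal spread, 176 with probes well above background on all 6 arrays and 1338 with array weights.

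The sign of each of 18 of the 19 genes was kept in all alternatives in which it had a value except these. EXOSC8 was 0.30 in Cy5 alone, and with median centring SLC35A2 was -0.29, ADAM15 -0.30, STIP1 -0.43, FIZ1 -0.064 and SNX11 -0.34, where the median of all genes was -0.46. In Cy3 alone, 14 of the 18 had the opposite sign to their log2 ratio, of which Cy3 is the denominator: PYY was -0.39, CPLX1 -0.54, INCA1 -0.13, FBXL19 -0.39, SKI -0.24, ADAM15 -0.39, STIP1 -0.078, PLAC2 -0.63, SNX11 -0.32, CROCC -0.088, ENSMMUT00000013823 -0.007, ENSMMUT00000046148 -0.043, PLEKHK1 0.093 and EXOSC8 0.59, each with an adjusted p of 1 (limma). The medians of 14 of 29 lists kept their sign in Cy5 alone and 10 of 29 with median centring. Those signs were counted against 0, whereas the median of all genes was 0.02 in Cy5 alone and -0.46 with median centring. The cause of these changes was not tested. Signal near background limits the values of PLEKHK1, FSD2 and IFIT5, and leaves AGBL2, CP, MOCS2 and IFIH1 without one.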

Other observations

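Other list members among the 4 smallest p of their list, chosen after their values were seen and none of them past the threshold, had groups that did not overlap. SLC7A5, the large neutral amino acid transporter of the blood-brain barrier, read 1.99, 2.28 and 2.34 at 6 h against 0.79, 0.60 and 0.72 at 1 h (adjusted p = 0.0705, limma), and differed by 1.64 within scan day 4. KCNA1, an axonal potassium channel, read 3.79, 3.65 and 3.14 at 6 h against 2.13, 1.72 and 1.08 at 1 h, and it differed by 1.82 in the left cortex and by 1.88 in the ischemic cortex. CNTN2, a contactin of the myelinated axon, differed by 1.56 in the ischemic cortex and by 0.97 in the left. MT3, the metallothionein of the brain, read 5.24, 5.51 and 4.39 at 6 h against 3.38, 3.07 and 3.46 at 1 h.

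Lower values with groups apart were fewer. KLF4, a Kruppel-like factor of the immediate early list, read -2.39, -1.46 and -2.06 at 6 h against -0.89, -1.04 and -0.84 at 1 h (difference -1.05, adjusted p = 0.212, limma). HBG1, the gamma chain of fetal hemoglobin, read -0.99, -0.77 and -0.29 at 6 h against 0.31, 0.22 and -0.03 at 1 h (-0.85), while HBB overlapped between the times. RRM2B, the p53-inducible subunit of ribonucleotide reductase, read -0.09, -0.10 and -0.24 at 6 h against 0.73, 0.09 and 0.43 at 1 h (-0.56). HBG1 has near-identical copies in the genome, so its probe may read more than 1 gene.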
